A study of Mus musculus with 16 samples.

Results

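The cell cycle genes described here are 49 genes chosen by their known function, from the cyclins that open the cycle to the motors that close it. Earlier results of these data were known when they were chosen. A gene was measured by the probe set that carried its symbol alone, and by the probe set with the highest mean where there were several. This gave 47 of the 49 genes, among 19938 genes tested on the same arrays. Cdkn1a, the p21 inhibitor of cyclin-dependent kinases, and Ccnb1, the cyclin B1 partner of Cdk1, had no such probe set and were not analysed here.

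A dividing cell passes from G1 into DNA synthesis (S phase), then through G2 into mitosis (M phase). Cyclins bound to cyclin-dependent kinases (CDKs) drive each step and CDK inhibitors hold it back. E2F factors switch on replication genes before S phase, and later the B-Myb (Mybl2) and Foxm1 factors switch on mitotic genes, largely through a promoter element called the CHR. Classical dendritic cells (DCs) arise from dividing precursors, some still divide in spleen, and mature DCs leave the cycle.

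The data are 16 arrays (Affymetrix Mouse Gene 1.0 ST), 2 for each of 8 groups, which read expression along the whole transcript. Ciita -/- mice (KO) lack the transactivator of the MHC class II genes, and Ciita +/+ mice (WT) have both copies. Every animal, on the B6 background, had GFP in place of 1 copy of Zbtb46, which encodes a DC transcription factor, so no group had both copies intact. CD24+ DCs (sorted for cDC1) and CD172a+ DCs (sorted for cDC2; CD172a is the product of Sirpa) came either from bone marrow culture or from spleen. The cultures had spent 9 days in 5% Flt3l, the cytokine that drives DC growth, and were then given gamma interferon followed by 4 hours of LPS. The labels disagree on the gamma interferon, with 16 hours in the design text and 22 hours in the protocol for growth. The spleen cells were sorted at homeostasis. Each of 8 mice, 2 per genotype and source, gave 1 CD24+ and 1 CD172a+ array. The source of a cell, its culture and its activation were therefore one and the same contrast and cannot be told apart, and neither can any separate processing of the arrays from each source.

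Levels below are log2 signals as deposited minus the median of the tested genes on the same array, so 0 is the median gene and a difference of 1 is a 2-fold change. As deposited, array medians were 6.85 to 6.92 in culture and 7.29 to 7.32 in spleen. The median gene was 0.34 (CD24+) and 0.28 (CD172a+) lower in culture as deposited, with log2 changes of -0.34 and -0.28. After centring, the median of all changes was 0.13 and 0.15. H2-Ab1, a class II gene under Ciita, matched the genotype labels at 2.41 to 4.79 on KO arrays and 6.60 to 6.91 on WT arrays. Ciita itself was at 0.20 to 2.81 on KO and 3.24 to 3.92 on WT culture arrays, but at 3.51 to 3.91 on KO and 3.58 to 4.03 on WT spleen arrays. Its probe set did not separate the spleen genotypes, and the deleted part of the gene is not stated in the labels. Xcr1 and Clec9a, which mark cDC1, were at 2.64 to 5.29 on all CD24+ arrays and at -0.89 to 0.65 on all CD172a+ arrays. Sirpa was at 1.04 to 2.23 on CD24+ arrays and 4.16 to 5.33 on CD172a+ arrays. The mean of the 10 cDC2 markers was 0.82 to 1.10 in cultured CD172a+ cells, against 3.22 to 3.32 in spleen CD172a+ cells. Clec4a4 was at -2.01 to -1.33 in culture and 3.16 to 3.39 in spleen there, while Irf4 was at 3.76 to 4.04 in culture and 3.66 to 3.83 in spleen. Of the other cDC1 markers, Cd24a was at 6.01 to 6.23 and Irf8 at 6.38 to 6.63 over both cultured subsets, so these transcripts did not separate them, and Batf3 was at 3.99 to 4.61 in cultured CD24+ and 4.68 to 5.17 in cultured CD172a+ cells. In spleen CD172a+ cells Cd24a was at 3.07 to 3.41 and Irf8 at 1.52 to 2.01. Of the markers shared by classical DCs, Itgax was at 0.89 to 1.74 in cultured and 5.54 to 5.69 in spleen CD172a+ cells. Flt3 was at 3.69 to 4.06 and 4.18 to 4.49, while Zbtb46 was at 2.06 to 2.34 and 0.97 to 1.02. Cultured and spleen CD172a+ cells thus differed in markers of DC type, and the part of this in the results below was not tested.

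One array stood apart. Cultured CD24+ KO replicate 2 had Xcr1 at 2.64, against 3.47 to 3.94 on the other cultured CD24+ arrays, and Sirpa at 2.23, against 1.45 to 1.49. It also had low values of most mitotic genes, given with each result. The other array of that mouse, cultured CD172a+ KO replicate 2, was shifted the same way in part. Its Mki67 was at 3.07, against 2.42 to 2.66 on the other cultured CD172a+ arrays, and its Top2a at -0.11, against 0.01 to 0.37. Its Cdk1 was not low, at 1.22 against 0.83 to 1.05. Outside the comparison over all mice, both arrays of this mouse were never left out together. Spleen CD24+ KO replicate 2 carried transcripts of granulocyte precursors, with Ngp at 3.12, against -1.48 to 1.29 on the other spleen CD24+ arrays. Of the red cell markers, Car1 was at 2.84 on it, against 0.14 to 1.11, but Alas2 was at -0.84, against -0.95 to -0.81.

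E2F sites are known before many replication genes and CHR sites before many mitotic ones. Whether such sites go with the changes described below was not tested. RefSeq promoters (GRCm38.p6, 250 bases before to 50 after the start) were found for 36 of the 47 genes, 40 promoters in all. They were searched on both strands for 4 kinds of motif: E2F-like (TTTCCCGC, TTTGGCGC, TTTCGCGC or TTTGCCGC), a shorter E2F core (TTCCCGC or TTGGCGC, which lies inside 2 of the 4), CHR-like (TTTGAA) and CCAAT. The CHR-like letters stood in 10 of 14 promoters of mitosis genes (71.4%) and 1 of 13 of replication genes (7.69%), against 17.9% of all 32851 promoters in the table. The E2F-like letters ran the other way, in 7.14% of mitosis promoters and 46.2% of replication promoters (6 of 13), against 2.26% of all. CCAAT stood in 85.7% and 69.2%, against 37.4% of all. Other mitosis genes, a separate list, held the CHR-like letters in 35 of 53 promoters (66.0%). A match shows letters only, not binding. The promoters of Ccnb2 and Kif11, among the mitosis genes that changed most between culture and spleen, and of Top2a, whose change differed most by subset together with Kif11, are printed first, with those of 2 subunits of the MCM helicase, Mcm6 and Mcm3, that behaved unlike each other. Capitals mark every match.
Ccnb2, chr9:70421505-70421804, minus strand: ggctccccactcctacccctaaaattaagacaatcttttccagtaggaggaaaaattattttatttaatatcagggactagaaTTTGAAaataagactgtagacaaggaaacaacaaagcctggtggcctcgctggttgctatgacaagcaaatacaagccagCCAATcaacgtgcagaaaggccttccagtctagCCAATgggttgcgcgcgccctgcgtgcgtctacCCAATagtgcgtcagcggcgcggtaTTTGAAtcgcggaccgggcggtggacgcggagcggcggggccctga
Kif11, chr19:37376132-37376431, plus strand: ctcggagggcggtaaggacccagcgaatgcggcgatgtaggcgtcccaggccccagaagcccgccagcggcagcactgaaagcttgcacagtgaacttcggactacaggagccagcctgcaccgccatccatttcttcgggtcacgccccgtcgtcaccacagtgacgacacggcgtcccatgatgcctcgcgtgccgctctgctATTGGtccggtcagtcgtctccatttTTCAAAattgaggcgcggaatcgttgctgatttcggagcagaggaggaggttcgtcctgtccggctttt
Top2a, chr11:99024140-99024439, minus strand: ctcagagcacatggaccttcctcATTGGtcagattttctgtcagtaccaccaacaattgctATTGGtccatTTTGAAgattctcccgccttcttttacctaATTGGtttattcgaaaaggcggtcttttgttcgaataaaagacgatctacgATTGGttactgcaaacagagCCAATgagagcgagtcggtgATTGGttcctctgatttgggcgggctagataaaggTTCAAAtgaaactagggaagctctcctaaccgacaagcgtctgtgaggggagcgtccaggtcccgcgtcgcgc
Mcm6, chr1:128359656-128359955, minus strand: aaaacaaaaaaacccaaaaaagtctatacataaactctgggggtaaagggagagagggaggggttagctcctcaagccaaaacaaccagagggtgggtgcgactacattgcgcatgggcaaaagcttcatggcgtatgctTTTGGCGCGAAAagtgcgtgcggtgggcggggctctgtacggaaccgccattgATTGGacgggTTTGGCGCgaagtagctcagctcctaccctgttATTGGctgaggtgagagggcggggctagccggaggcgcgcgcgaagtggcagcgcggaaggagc
Mcm3, chr1:20820263-20820562, minus strand: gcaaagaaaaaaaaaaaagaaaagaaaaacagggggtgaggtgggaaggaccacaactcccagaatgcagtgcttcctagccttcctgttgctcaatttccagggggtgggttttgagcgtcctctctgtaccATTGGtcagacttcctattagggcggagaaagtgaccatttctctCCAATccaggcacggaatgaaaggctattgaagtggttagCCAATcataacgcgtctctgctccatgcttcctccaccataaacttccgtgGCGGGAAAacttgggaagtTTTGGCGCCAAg
Ccnb2 and Top2a each held 2 CHR-like matches and several of CCAAT, and Kif11 held 1 of each. The promoters of Birc5 and Nusap1, not printed, held no match of any kind, though their changes also differed by subset (by 1.61 and 1.30). Both MCM promoters held E2F-like matches and CCAAT but no CHR-like one.

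Cultured, activated DCs had lower transcripts of most cell cycle genes than spleen DCs sorted by the same surface marker. In CD24+ cells 33 of 47 genes fell and 7 rose, with a median log2 change of -0.84 (limma, Benjamini-Hochberg adjusted p under 0.05). In CD172a+ cells 35 fell and 8 rose, with a median of -1.31. Over all genes tested, 29.5% fell and 47.1% rose in CD24+ cells, and 29.5% fell and 49.4% rose in CD172a+ cells. After centring, the cell cycle genes thus went against the prevailing direction. The median change over all genes was 0.13 and 0.15. With the signals as deposited, without centring, 41 cell cycle genes were lower and 2 higher in CD24+ cells (all genes 65.3% and 13.8%), and 38 and 6 in CD172a+ cells (60.2% and 16.6%). On that scale most genes were lower in culture, and the cell cycle genes went with the prevailing direction. In sorted bulk cells, fewer dividing cells and less transcript in each cannot be told apart. Of 7 marker lists of other cell types, 4 had lower means on all culture arrays than on any spleen array: the mean of B and plasma cell markers (6 of 7 measured) was -0.89 to -0.72 in culture and -0.35 to 0.00 in spleen, that of T and NK markers (7 of 8) -1.30 to -0.83 and -0.65 to 0.08, that of blood progenitor markers (8 of 8) -0.25 to 0.02 and 0.25 to 0.52, and that of monocyte and macrophage markers (9 of 10) -0.21 to 0.44 and 0.66 to 2.16. Members of these lists did not all go one way. Ms4a1, a B cell marker, was at -1.76 to -1.22 in culture and 1.14 to 2.31 in spleen. Pax5 was at -0.18 to -0.04 and -0.65 to -0.44, and Sdc1 at 0.73 to 1.19 and -0.50 to -0.22, both higher in culture. Lyz2, of the macrophage list, was at 3.71 to 4.69 in cultured and 3.33 to 3.46 in spleen CD24+ cells. In CD172a+ cells Lyz2 was at -0.58 to 0.24 and 2.83 to 3.44. The mean of plasmacytoid DC markers was 1.80 to 2.04 in culture and 0.89 to 1.80 in spleen, but its members split. Bst2 was at 6.02 to 6.41 in culture and 4.08 to 4.82 in spleen, and Siglech at -0.52 to -0.25 and -0.14 to 0.92. Means of the markers of granulocyte precursors (-1.13 to -0.93 and -1.04 to 0.85) and red cells (-0.95 to -0.77 and -0.83 to -0.33) overlapped between the sources. Their part in these results was not tested.

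**Figure D1:**
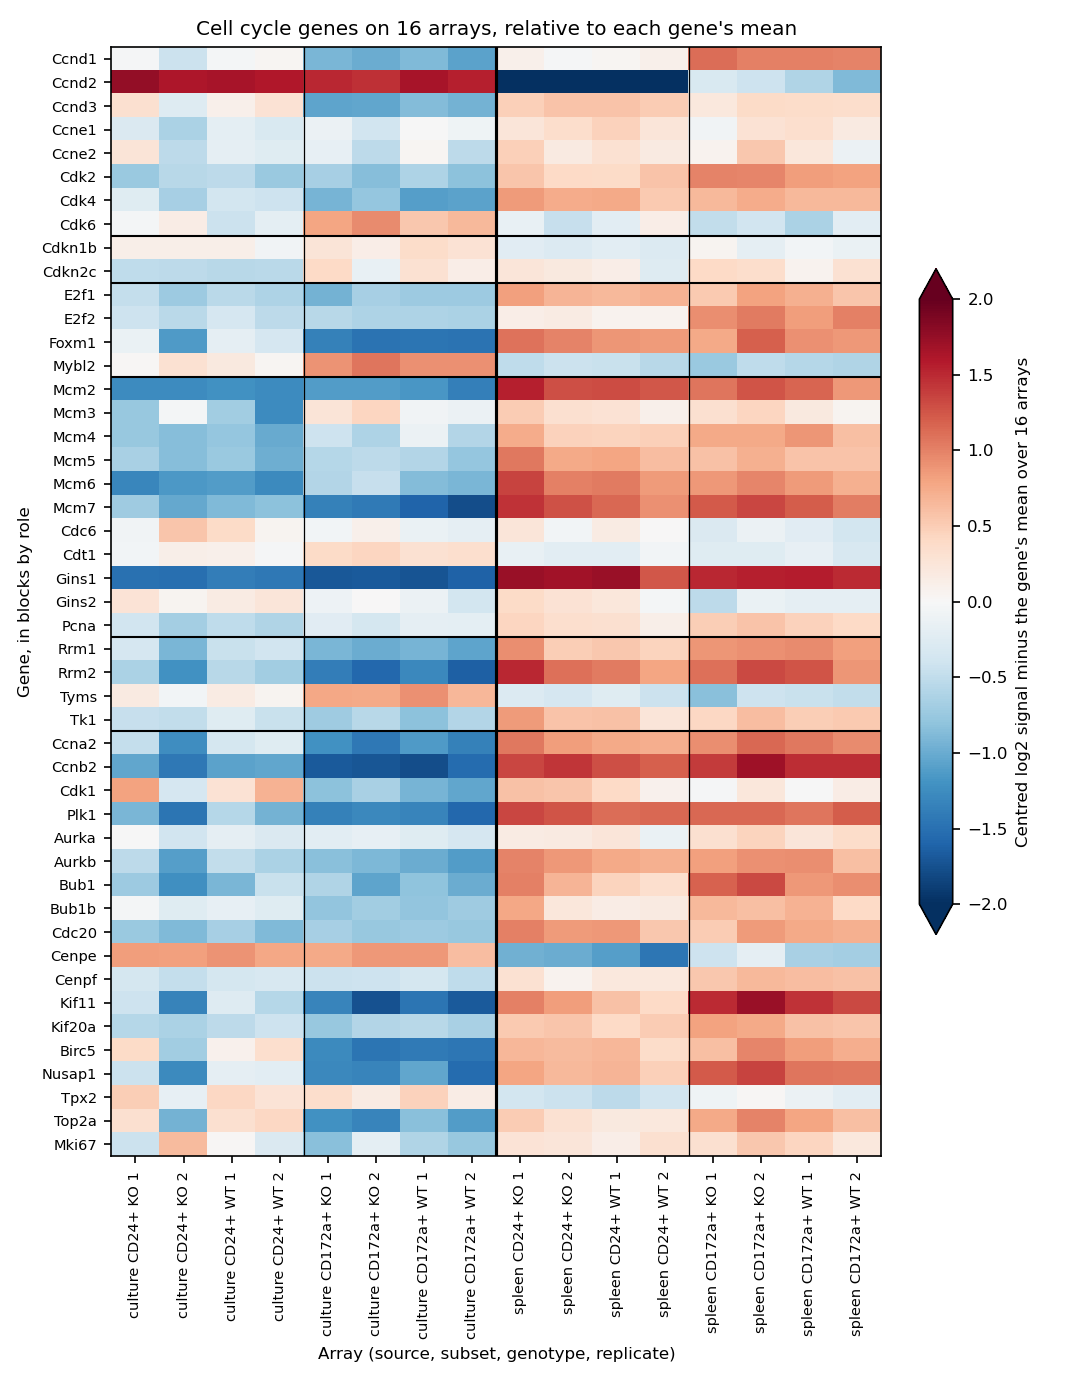
Heat map of 47 cell cycle genes (rows, in blocks by role) on 16 arrays (columns, culture left of spleen, CD24+ left of CD172a+, KO left of WT). Colour is the centred log2 signal minus the gene's own mean over the 16 arrays, red above and blue below, with the scale cut at 2 either way. Most rows are blue on the 8 culture arrays and red on the 8 spleen arrays, while Ccnd2, Mybl2, Cenpe, Tpx2 and Tyms run the other way.

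The G1 cyclins and their kinases, 8 genes, split within the family. Cyclin D proteins pair with Cdk4 and Cdk6 and link growth signals to the cycle. Ccnd2 showed the largest rise of all 47 genes: it was at 6.99, 6.86 (KO), 6.89 and 6.84 (WT) in cultured CD24+ cells and at 2.52, 2.65, 2.60 and 2.55 in spleen CD24+ cells. That is a log2 change of 4.32 ± 0.07 (SE, 4 arrays against 4, adjusted p = 5.78e-13) or 19.9-fold. In CD172a+ cells it stood at 6.75, 6.70, 6.89 and 6.79 in culture and at 4.93, 4.82, 4.64 and 4.35 in spleen, a rise of 2.10 ± 0.07 (adjusted p = 7.23e-11). The cultured subsets thus had nearly the same Ccnd2 signal, and the spleen subsets did not.

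Ccnd1 moved the other way, and in the CD172a+ subset. It was at 3.82, 3.75, 3.86 and 3.66 in cultured CD172a+ cells, against 5.85, 5.74, 5.75 and 5.73 in spleen (-2.00 ± 0.08, adjusted p = 5.54e-10). In CD24+ cells it was at 4.71, 4.30, 4.69 and 4.77 in culture and 4.83, 4.71, 4.78 and 4.83 in spleen, a difference of -0.17 ± 0.08 that did not pass the test (adjusted p = 0.0750). Ccnd3, the third D cyclin, fell by 1.31 ± 0.10 in CD172a+ cells, to 0.83 to 1.01 in culture against 2.10 to 2.26 in spleen. In CD24+ cells it fell by 0.41 ± 0.10, and by 0.27 without cultured CD24+ KO replicate 2, where it was lowest at 1.63. No other cyclin gene of the list rose.

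Values of the 2 KO arrays come first in each run of 4, then those of the 2 WT arrays. Of the kinases, Cdk4 was at 3.70, 3.27, 3.57 and 3.53 in cultured CD24+ cells and 4.79, 4.68, 4.70 and 4.46 in spleen CD24+ cells. Cdk4 fell by 1.14 ± 0.09 in CD24+ and by 1.65 ± 0.09 in CD172a+ cells, and Cdk2, the partner of cyclin E, by 1.12 ± 0.08 and 1.64 ± 0.08. Cdk6 rose in CD172a+ cells alone among the calls, to 2.10, 2.26, 1.86 and 1.97 in culture against 0.82, 0.94, 0.68 and 1.10 in spleen (1.16 ± 0.11, adjusted p = 1.44e-06). In CD24+ cells its change was 0.04 ± 0.11 (95% confidence interval -0.21 to 0.29). The Cdk4 and Cdk6 transcripts, whose kinases share the D cyclins, thus moved in opposite directions in CD172a+ cells. Ccne1, a cyclin E, fell by 0.68 ± 0.10 in CD24+ cells and by 0.33 ± 0.10 in CD172a+ cells. The calls of Ccne2 in both subsets, and of Ccne1 in CD172a+ cells, ended when single arrays were left out (6 of 8 omissions for Ccne2 in CD24+ cells and 4 of 8 in CD172a+ cells, 1 of 8 for Ccne1).

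Inhibitors and transcription factors came next. Cdkn1b (p27), which restrains cyclin E and cyclin D kinases, rose by 0.32 ± 0.06 in CD24+ and 0.34 ± 0.06 in CD172a+ cells. These directions turned without centring, to -0.14 and -0.09, and after quantile normalization, to -0.18 and -0.05. Cdkn2c (p18), an inhibitor of Cdk4 and Cdk6, fell by 0.61 ± 0.11 in CD24+ cells, to 0.14 to 0.18 in culture against 0.43 to 0.94 in spleen. In CD172a+ cells its change was -0.11 ± 0.11 (adjusted p = 0.391).

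E2f1, an activator of S phase genes, fell by 1.31 ± 0.09 in CD24+ cells and by 1.42 ± 0.09 in CD172a+ cells. E2f2 fell by 0.56 ± 0.06 and 1.55 ± 0.06, and Foxm1, the activator of mitotic genes, by 1.40 ± 0.17 and 2.37 ± 0.17. In CD172a+ cells Foxm1 was at -0.44, -0.56, -0.55 and -0.56 in culture and 1.67, 2.11, 1.82 and 1.77 in spleen. In CD24+ cells Foxm1 was at -0.22 on cultured CD24+ KO replicate 2 and at 0.57 to 0.77 on the other 3 cultured CD24+ arrays, against 1.76 to 1.99 in spleen. Mybl2 was the exception among the 4 factors. It rose to 2.85, 3.02, 2.87 and 2.86 in cultured CD172a+ cells, against 1.20, 1.44, 1.38 and 1.35 in spleen (1.56 ± 0.08, adjusted p = 2.32e-09). In CD24+ cells it rose by 0.63 ± 0.08, a call that did not hold without centring. The transcripts of Mybl2 and Foxm1, whose products act on the same set of mitotic promoters, thus changed in opposite directions.

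Replication genes, 11 of licensing and the fork and 4 of deoxynucleotide synthesis, fell in number alike in both subsets: 11 of 15 fell and 2 rose in CD24+ cells (median -1.12), and 10 fell and 2 rose in CD172a+ cells (median -1.18). Gins1, a subunit of the GINS complex that holds the helicase at the fork, fell most. It was at -1.74, -1.76, -1.63 and -1.68 in cultured CD24+ cells and at 1.48, 1.42, 1.48 and 0.99 in spleen, a change of -3.05 ± 0.08 (adjusted p = 2.61e-11). In CD172a+ cells it was at -1.98 to -1.87 in culture and 1.24 to 1.32 in spleen (-3.21 ± 0.08, adjusted p = 1.16e-11). Gins1 was below the lower quartile of all genes on the 8 culture arrays and on no spleen array. Gins2, another subunit of the same complex, had changes of -0.03 ± 0.09 in CD24+ and 0.11 ± 0.09 in CD172a+ cells and passed no test.

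The 6 MCM subunits form 1 ring, the helicase that opens DNA, yet their transcripts did not fall evenly. Mcm2 was at 0.76, 0.76, 0.80 and 0.76 in cultured CD24+ cells and 3.57, 3.30, 3.31 and 3.25 in spleen CD24+ cells (-2.59 ± 0.08). In CD172a+ cells it was at 0.90, 0.90, 0.85 and 0.65 in culture and 3.08, 3.27, 3.17 and 2.88 in spleen (-2.27 ± 0.08). All 4 cultured arrays of each subset lay below all of its spleen arrays. Mcm6 was at 0.51, 0.68, 0.71 and 0.55 in cultured CD24+ cells and 3.18, 2.83, 2.86 and 2.67 in spleen CD24+ cells, and at 1.24, 1.36, 0.95 and 0.91 in cultured CD172a+ cells and 2.69, 2.80, 2.67 and 2.54 in spleen CD172a+ cells. Mcm7 was at -0.04, -0.09, -0.28 and -0.46 in cultured CD172a+ cells and 2.54, 2.65, 2.53 and 2.34 in spleen CD172a+ cells. Mcm7 fell by 2.06 ± 0.09 in CD24+ and 2.73 ± 0.09 in CD172a+ cells, Mcm6 by 2.27 ± 0.08 and 1.56 ± 0.08, Mcm5 by 1.60 ± 0.08 and 1.22 ± 0.08, and Mcm4 by 1.38 ± 0.11 and 1.18 ± 0.11. Mcm3 fell by 0.99 ± 0.15 in CD24+ cells, where it was at 1.84, 2.56, 1.90 and 1.33 in culture and 3.10, 2.92, 2.88 and 2.70 in spleen. In CD172a+ cells its change was -0.13 ± 0.15 (95% confidence interval -0.45 to 0.20), with 2.85, 3.02, 2.52 and 2.48 in culture and 2.91, 3.02, 2.79 and 2.65 in spleen. The Mcm3 groups overlapped there, the only MCM gene and subset for which they did.

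Pcna, the sliding clamp of DNA polymerase, fell by 0.84 ± 0.07 in CD24+ cells, to 4.74, 4.44, 4.61 and 4.52 in culture against 5.54, 5.46, 5.43 and 5.24 in spleen. In CD172a+ cells it fell by 0.72 ± 0.07, to 4.89, 4.76, 4.94 and 4.92 in culture against 5.61, 5.68, 5.58 and 5.52 in spleen. The loaders of the MCM ring did not share the fall of its subunits. Cdc6 had changes of 0.15 ± 0.13 and 0.18 ± 0.13 (no call), and Cdt1 rose by 0.60 ± 0.06 in CD172a+ cells (adjusted p = 1.45e-06). In CD24+ cells Cdt1 rose by 0.19 ± 0.06, but was at -0.27 without centring.

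Rrm1 and Rrm2, the subunits of ribonucleotide reductase, fell by 1.12 ± 0.12 and 1.88 ± 0.15 in CD24+ cells and by 1.86 ± 0.12 and 2.62 ± 0.15 in CD172a+ cells. Rrm2 was at -0.80, -0.99, -0.70 and -1.05 in cultured CD172a+ cells and 1.69, 1.90, 1.85 and 1.47 in spleen CD172a+ cells, with no overlap. Tk1, thymidine kinase, fell by 0.98 ± 0.10 and 1.18 ± 0.10. Tyms, thymidylate synthase, rose by 1.32 ± 0.10 in CD172a+ cells, to 3.36, 3.35, 3.51 and 3.25 in culture against 1.75, 2.18, 2.15 and 2.09 in spleen. In CD24+ cells its rise was 0.41 ± 0.10, turned to -0.05 without centring. The genes of salvage and reduction thus fell while that of new thymidylate synthesis rose in CD172a+ cells.

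**Figure D2:**
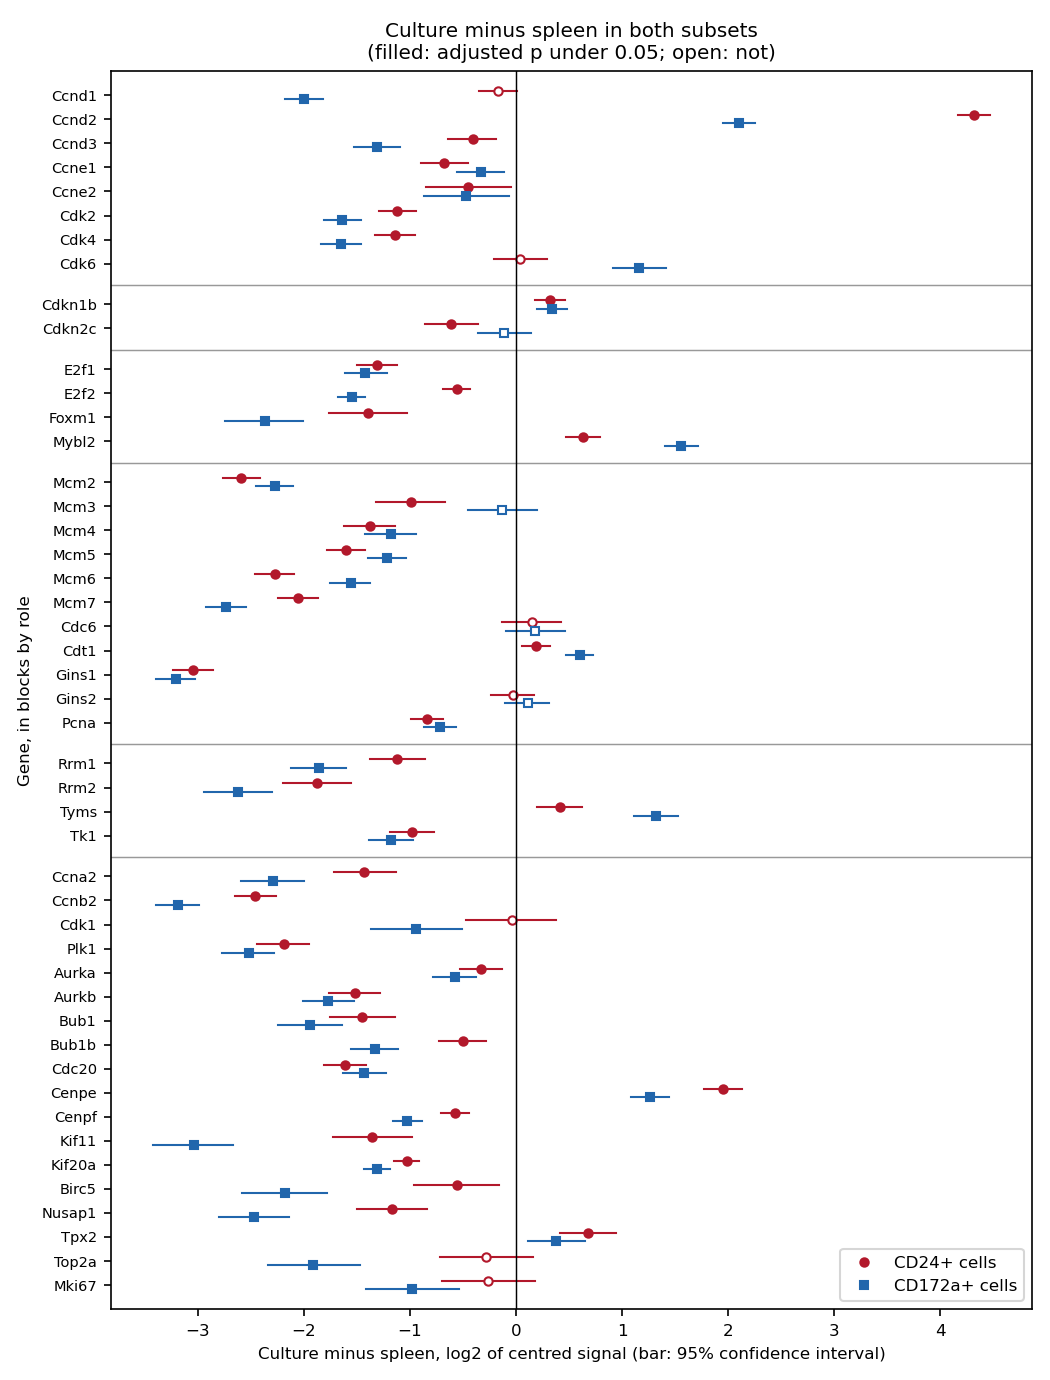
Change of each gene between culture and spleen (x axis, log2 of centred signal, 4 arrays against 4), with its 95% confidence interval, in CD24+ cells (red circles) and CD172a+ cells (blue squares). Filled symbols passed an adjusted p of 0.05. Most points lie left of 0, Ccnd2 lies far right, and for many mitosis genes at the bottom the CD172a+ square lies further left than the CD24+ circle.

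Of 18 measured genes of G2 and mitosis, 13 fell and 2 rose in CD24+ cells (median -0.80), and 16 fell and 2 rose in CD172a+ cells (median -1.60). Ccnb2, cyclin B2, fell most in both. It was at 0.70, 0.31, 0.66 and 0.69 in cultured CD24+ cells and 3.08, 3.17, 3.02 and 2.93 in spleen CD24+ cells (-2.46 ± 0.09, adjusted p = 2.65e-10). In CD172a+ cells it was at 0.05, 0.02, -0.04 and 0.20 in culture and 3.14, 3.43, 3.21 and 3.22 in spleen (-3.19 ± 0.09, adjusted p = 2.05e-11), or 9.12-fold lower. No culture array came near a spleen array for this gene.

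Plk1, the kinase that triggers mitotic entry, fell by 2.19 ± 0.11 in CD24+ and 2.52 ± 0.11 in CD172a+ cells. It was at -0.24, -0.79, 0.11 and -0.27 in cultured CD24+ cells and 2.01, 1.93, 1.80 and 1.82 in spleen CD24+ cells. Kif11, the motor that parts the spindle poles, was at -0.93, -1.34, -1.07 and -1.28 in cultured CD172a+ cells and 1.89, 2.12, 1.84 and 1.71 in spleen (-3.04 ± 0.17). In CD24+ cells it was at -0.02, -0.94, 0.14 and -0.18 in culture and 1.41, 1.23, 0.99 and 0.79 in spleen (-1.36 ± 0.17). No culture array overlapped a spleen array in either subset. Cdc20, Aurkb, Bub1, Ccna2 and Nusap1, which act in chromosome segregation or drive entry into it, fell by 1.17 to 1.61 in CD24+ cells. They fell by 1.43 to 2.47 in CD172a+ cells. Kif20a, Cenpf, Bub1b and Aurka, a motor, a kinetochore protein, a checkpoint kinase and a spindle kinase, fell by 0.33 to 1.03 in CD24+ cells and by 0.58 to 1.33 in CD172a+ cells. The CD24+ call of Aurka ended after quantile normalization (-0.14).

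Cdk1, the kinase of mitosis, was at 2.68, 1.53, 2.16 and 2.57 in cultured CD24+ cells and 2.46, 2.43, 2.27 and 1.95 in spleen, a difference of -0.04 ± 0.20 (95% confidence interval -0.47 to 0.38, adjusted p = 0.843). In CD172a+ cells it fell by 0.94 ± 0.20, to 1.05, 1.22, 0.94 and 0.83 in culture against 1.84, 2.09, 1.86 and 2.01 in spleen. Mki67, the gene of the Ki-67 proliferation marker, gave 2.83, 3.90, 3.29 and 2.97 in cultured CD24+ cells and 3.53, 3.51, 3.39 and 3.59 in spleen. Its difference of -0.26 ± 0.20 passed no test (adjusted p = 0.256), but without cultured CD24+ KO replicate 2, which held the highest value, Mki67 was lower by a change of -0.53 (adjusted p = 0.00498). In CD172a+ cells Mki67 fell by 0.98 ± 0.20, to 2.42, 3.07, 2.66 and 2.50 in culture against 3.59, 3.81, 3.69 and 3.47 in spleen.

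Cenpe, a kinetochore motor, and Tpx2, a spindle assembly factor, were the 2 mitosis genes that rose. Cenpe was at 1.37, 1.35, 1.43 and 1.31 in cultured CD24+ cells and -0.43, -0.45, -0.56 and -0.91 in spleen (1.95 ± 0.08), and rose by 1.26 ± 0.08 in CD172a+ cells. Tpx2 rose by 0.68 ± 0.12 in CD24+ cells and by 0.38 ± 0.12 in CD172a+ cells, and neither call held without centring (0.22 in CD24+ and -0.05 in CD172a+ cells). Each of these genes was read by 1 probe set, so a transcript form cannot be told from the gene as a whole. Top2a, which untangles DNA, had a change of -0.28 ± 0.20 in CD24+ cells (no call) and fell by 1.91 ± 0.20 in CD172a+ cells, and Birc5 (survivin) fell by 0.56 ± 0.18 and 2.18 ± 0.18. The CD24+ call of Birc5 ended without WT replicate 1 of culture (-0.50, adjusted p = 0.0510) or of spleen (-0.49, adjusted p = 0.0547), and its change was -0.29 without cultured CD24+ KO replicate 2.

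Within a source, the subsets differed in opposite ways. In spleen, 2 of the 47 genes were higher and 10 lower in CD24+ than in CD172a+ cells (all genes 13.8% and 14.3%). In culture, 17 were higher and 10 lower (all genes 11.6% and 12.3%). Of the mitosis genes, 0 were higher and 6 lower in spleen CD24+ cells (median -0.21), while 9 were higher and 0 lower in cultured CD24+ cells (median 0.47). At an unadjusted p under 0.05, 11 of the 18 differed in spleen and 11 in culture. The shares of all genes above are by adjusted p only, so these unadjusted counts are not read as a result about the members.

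In spleen the G1 group held the largest difference. Ccnd2, whose arrays are given above, was lower in CD24+ cells by a change of -2.11 ± 0.07 (adjusted p = 3.88e-10), and Ccnd1 by -0.98 ± 0.08. E2f2 was at 0.75, 0.79, 0.69 and 0.69 in spleen CD24+ cells, against 1.55, 1.66, 1.45 and 1.63 in spleen CD172a+ cells (-0.84 ± 0.06). Kif11, Cenpe, Nusap1 and Cenpf were lower by changes of -0.79 ± 0.17, -0.64 ± 0.08, -0.53 ± 0.15 and -0.40 ± 0.06. Gins2 was higher, by 0.47 ± 0.09. Calls of Bub1, Nusap1, Kif20a and Mcm2 each ended in 5 or 6 of 8 omissions of single arrays, and only Ccnd1, Ccnd2, E2f2, Cenpe and Cenpf kept their call in every setting. Monocyte and macrophage markers (9 of 10 measured) averaged 0.66 to 1.02 on spleen CD24+ and 1.43 to 2.16 on spleen CD172a+ arrays, and C1qa reached 1.34 and 3.19. Their part in the subset difference was not tested.

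In culture Ccnd1 was higher in CD24+ cells by 0.84 ± 0.08, opposite to spleen. Ccnd3 was higher by 1.10 ± 0.10 in culture and by 0.20 ± 0.10 in spleen (no call), and Ccnd2 differed by 0.11 ± 0.07 in culture (no call). Birc5 was at 2.16, 1.08, 1.86 and 2.12 in cultured CD24+ cells and at 0.51, 0.32, 0.36 and 0.34 in cultured CD172a+ cells (1.42 ± 0.18, adjusted p = 1.35e-04). Cdk1 was higher by 1.23 ± 0.20, with all cultured CD24+ arrays above all cultured CD172a+ arrays. Top2a was at 1.53, 0.27, 1.54 and 1.62 in CD24+ cells, against 0.01, -0.11, 0.37 and 0.10 in CD172a+ cells (1.15 ± 0.20). The groups of Top2a overlapped through KO replicate 2 alone, and without it the difference was 1.46. On that array Birc5, Cdk1, Top2a, Foxm1, Kif11 and Ccna2 were all the lowest of the 4 cultured CD24+ values, while Mki67 and Mcm3 were the highest.

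Genes lower in cultured CD24+ cells were Cdk6 (-0.86 ± 0.11), Mybl2 (-0.81 ± 0.08), Mcm3 (-0.81 ± 0.15), Cdkn2c (-0.70 ± 0.11), Tyms (-0.69 ± 0.10), Mcm6 (-0.50 ± 0.08, and -0.30 with no call in WT groups alone) and, by smaller changes, Mcm4, Cdt1, Pcna and Cdkn1b. The calls of Cdkn1b and Mcm4 ended in 6 and 3 of 8 omissions of single arrays, and with culture arrays alone. Foxm1 was higher by 0.99 ± 0.17, Rrm2 by 0.70 ± 0.15 and Mcm7 by 0.68 ± 0.09. The calls of Foxm1 and Rrm2 did not hold in every setting. So subunits of one helicase differed in opposite directions, Mcm7 being higher and Mcm3 and Mcm6 lower in cultured CD24+ cells.

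**Figure D3:**
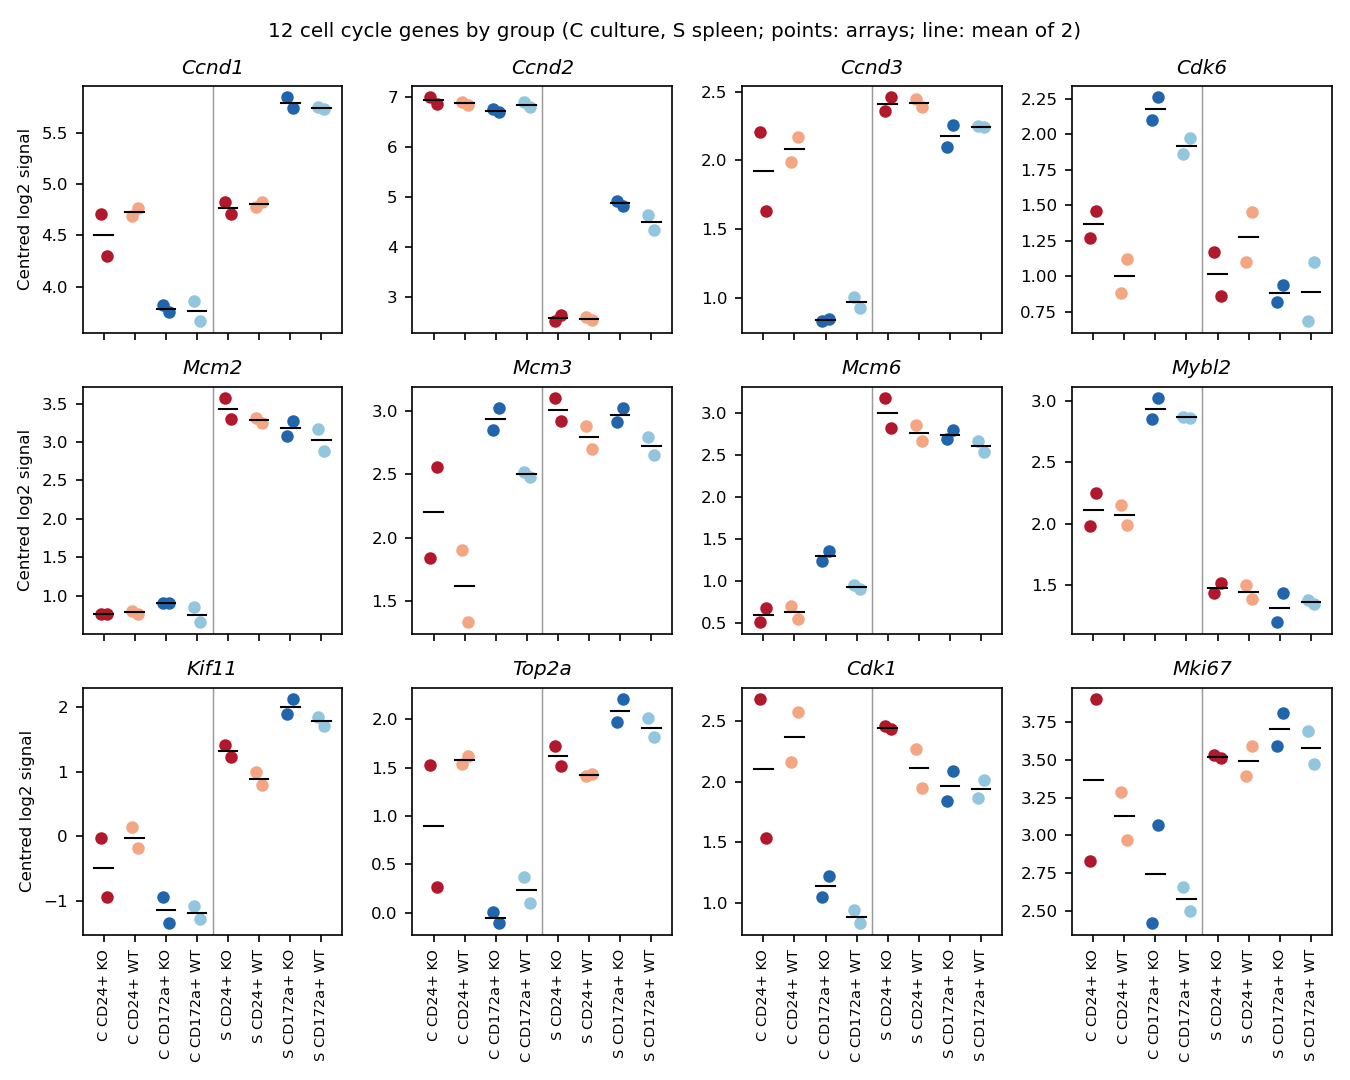
Centred log2 signal (y axis, 0 is the median gene of the array) of 12 cell cycle genes in 8 groups, C for culture and S for spleen. Points are arrays, red shades CD24+ and blue shades CD172a+ with KO darker than WT, and the line is the mean of 2. Ccnd2 is at 6.70 to 6.99 on all culture arrays, and the low second KO point of Top2a and Cdk1 in cultured CD24+ cells is the array that stood apart.

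Whether culture and spleen differed alike in both subsets was tested directly, as the change in CD24+ cells minus the change in CD172a+ cells. Of the 47 genes, 29 passed: 21 with a positive difference and 8 with a negative one (all genes 13.4% and 12.8%). All 11 mitosis genes that passed were positive, with a median of 0.70 over the 18. For 10 of them the fall in culture was smaller in CD24+ cells or passed no test there, and for Cenpe the rise was larger. Of 15 replication genes, 3 were positive and 5 negative, with a median of -0.14. Over all genes tested the median was -0.02. Without cultured CD24+ KO replicate 2, 33 genes passed, 16 of them mitosis genes and all of those positive.

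Kif11 gave 1.69 ± 0.24 (adjusted p = 2.39e-04), Top2a 1.63 ± 0.28 (adjusted p = 0.00100) and Birc5 1.61 ± 0.26 (adjusted p = 5.68e-04). Without that array the values were 1.92, 1.94 and 1.88. Cdk1 gave 0.90 ± 0.28 (adjusted p = 0.0316), a call that ended in 10 of 16 omissions of single arrays. Mki67 gave 0.72 ± 0.28 and did not pass (adjusted p = 0.0873).

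Among the G1 genes, Ccnd2 gave 2.22 ± 0.10, Ccnd1 1.83 ± 0.12 and Ccnd3 0.89 ± 0.14, while Cdk6 gave -1.13 ± 0.16. All 3 D cyclins were thus positive, Ccnd2 through a larger rise and the other 2 through a smaller change in CD24+ cells. E2f2 gave 0.99 ± 0.08, Foxm1 0.97 ± 0.24 and Mybl2 -0.93 ± 0.11. Of the replication genes, Tyms gave -0.91 ± 0.14, Mcm3 -0.86 ± 0.21, Mcm6 -0.71 ± 0.12, Rrm1 0.75 ± 0.17 and Mcm7 0.68 ± 0.12. The calls of Foxm1, Mcm3, Mcm6, Rrm1 and Mcm7 did not hold in every setting. The calls of Cdkn2c (-0.50 ± 0.16), Mcm5 (-0.38 ± 0.12) and Rrm2 (0.73 ± 0.21) ended in 10, 9 and 4 of 16 omissions. Pcna gave -0.12 ± 0.10 and passed no test.

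Replication and mitosis genes were also averaged on each array, relative to each gene's mean in the spleen WT arrays of the same subset, as a description. The replication mean was -1.08, -1.14, -1.04 and -1.18 on the 4 cultured CD24+ arrays (KO, KO, WT, WT). It was -1.02, -1.01, -1.06 and -1.18 on the 4 cultured CD172a+ arrays. All 8 values lay between -1.18 and -1.01. The mitosis mean was -0.57, -1.04, -0.56 and -0.58 in cultured CD24+ cells and -1.43, -1.45, -1.40 and -1.55 in cultured CD172a+ cells. The replication mean minus the mitosis mean was -0.10 on cultured CD24+ KO replicate 2 and -0.60 to -0.48 on the other 3 cultured CD24+ arrays, so mitosis genes were the less reduced there. It was 0.33 to 0.44 on the 4 cultured CD172a+ arrays, where mitosis genes were the more reduced.

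**Figure D4:**
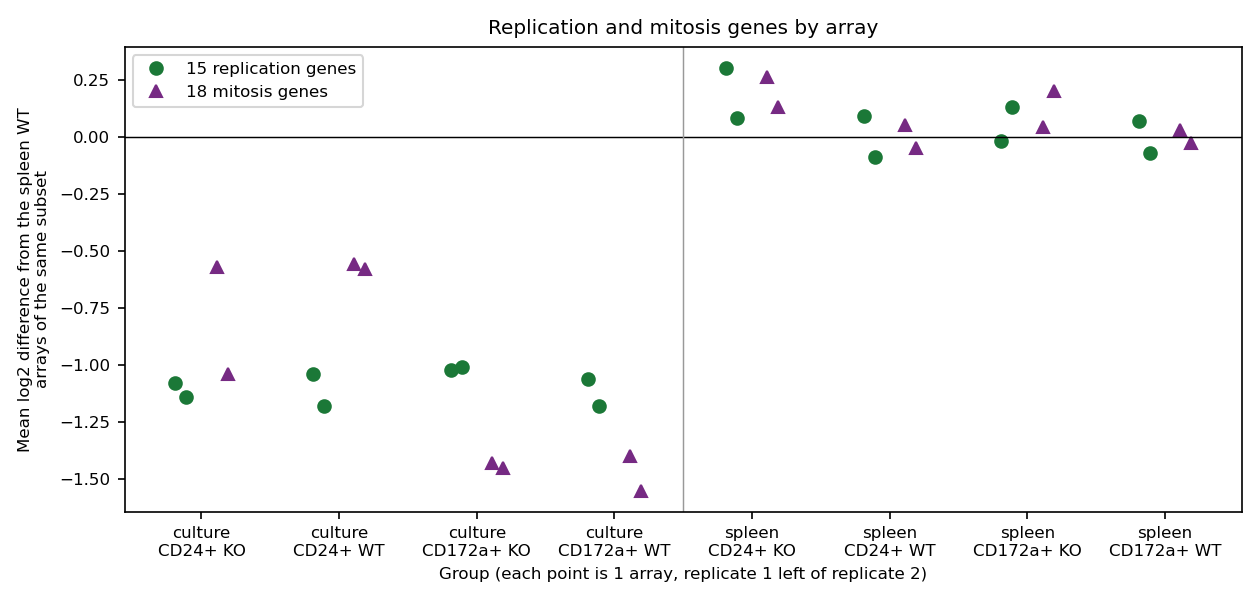
Mean difference of 15 replication genes (green circles) and 18 mitosis genes (purple triangles) from the spleen WT arrays of the same subset (y axis, log2), for each array by group. Replication means of the 8 culture arrays lie between -1.01 and -1.18, while mitosis means lie above them in CD24+ cells and below them in CD172a+ cells. The second cultured CD24+ KO array has the lowest mitosis mean of its subset, -1.04.

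Loss of Ciita gave no call among the 47 genes. The count was 0 in cultured CD24+ cells (6 at an unadjusted limma p under 0.05), 0 in cultured CD172a+ cells (2), 0 in spleen CD24+ cells (5) and 0 in spleen CD172a+ cells (3). Of all genes tested, 0.0903%, 0.0552%, 0.0602% and 0.0802% passed in these comparisons. Over all 8 mice, with each mouse's arrays averaged, 0 passed as well (4 unadjusted, all genes 0.0802%). The difference of the genotype effect between sources gave 0 calls in CD24+ cells (9 unadjusted, all genes 0%) and 0 in CD172a+ cells (2 unadjusted, all genes 0.0201%). These shares of all genes are by adjusted p, and none is set beside the unadjusted counts, which are not read as a result about the members.

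The largest differences in cultured CD24+ cells were those of Top2a, at 1.53 and 0.27 in KO and 1.54 and 1.62 in WT (-0.68 ± 0.28, adjusted p = 0.618), and Nusap1, at 0.73 and -0.10 in KO and 0.98 and 0.95 in WT (-0.65 ± 0.21, adjusted p = 0.529). Both KO means rested on replicate 2. Without it the differences were -0.05 and -0.24. With replicate 2 as the only KO array, its spread assumed to be that of the other groups, 13 of the 47 genes were called, 12 of them lower, but 3.21% of all genes were called higher and 2.91% lower in the same fit. Differences in spleen CD24+ cells rest on the same 2 KO and 2 WT arrays for every gene, so genes are not replicates. Over the mitosis and replication genes they had medians of 0.18 and 0.21, with no call. Bub1 showed the largest of these, at 0.31 and -0.02 in KO and -0.25 and -0.35 in WT (0.44 ± 0.20, adjusted p = 1.00). The mean of the 15 granulocyte precursor markers was 0.85 on spleen CD24+ KO replicate 2, the highest of all arrays. That array had replication and mitosis means of 0.08 and 0.13, below the 0.30 and 0.26 of KO replicate 1, whose marker mean was -0.48.

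In spleen CD172a+ cells Ccnd2 was at 4.93 and 4.82 in KO and 4.64 and 4.35 in WT (0.38 ± 0.10, adjusted p = 0.454). In cultured CD172a+ cells Mcm3 was at 2.85 and 3.02 in KO and 2.52 and 2.48 in WT (0.43 ± 0.21, adjusted p = 0.800). Mcm3 also had the largest difference over all mice, 0.37 ± 0.11 (adjusted p = 0.699). Of the other genes given throughout, Mki67, Cdk1, Pcna, Ccnd1 and Ccnd3 had no adjusted p below 0.718 in the 4 comparisons of genotype.

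**Figure D5:**
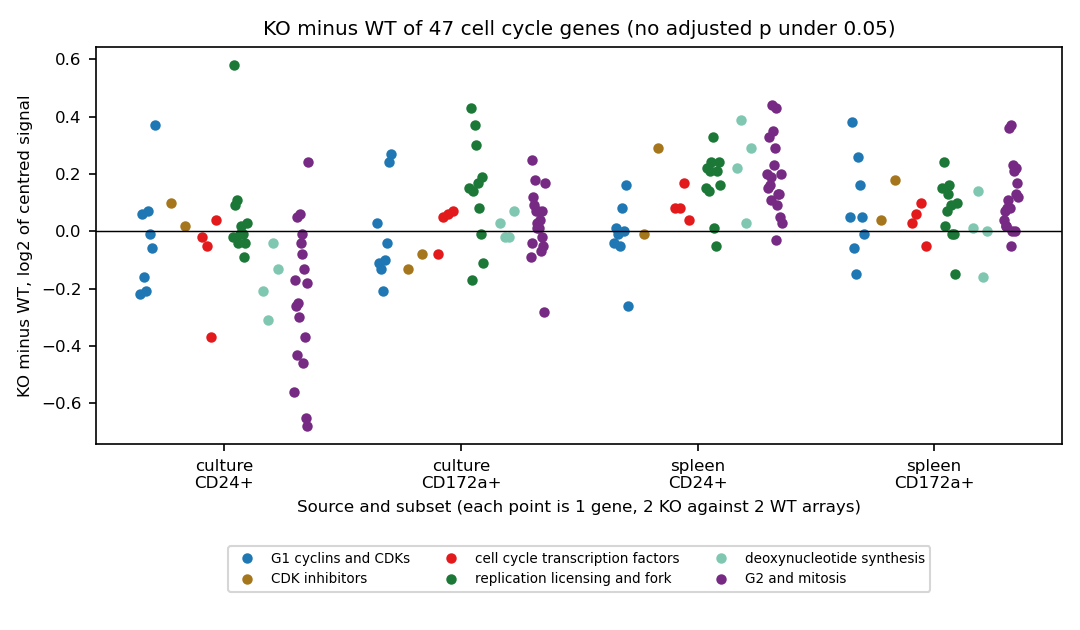
KO minus WT (y axis, log2 of centred signal) of 47 genes in each source and subset, 2 arrays against 2, coloured by role. No point passed an adjusted p of 0.05. In cultured CD24+ cells the mitosis genes reach down to -0.68.

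Lists of further cell cycle genes, not among the 49, were counted the same way. Between culture and spleen, 47.1% of all genes rose and 29.5% fell in CD24+ cells, against 49.4% and 29.5% in CD172a+ cells. Of 59 other mitosis genes, 51 fell and 3 rose in culture in CD24+ cells (median -0.79), and 56 fell and 3 rose in CD172a+ cells (median -1.57). The motor Kif23 fell by 2.49 ± 0.17 and 3.17 ± 0.17. Depdc1a, which acts in mitosis, had changes of -2.38 ± 0.09 and -3.15 ± 0.09. The 3 that rose in both were Pttg1 (securin), Cenpi and Ncapg2, named after their values were seen. In the test of the subset difference, 41 of the 59 passed, all positive (median 0.62), among them Spc24 (1.67 ± 0.30) and Kif4 (1.57 ± 0.32). In culture 28 were higher and 0 lower in CD24+ than in CD172a+ cells, and in spleen 1 was higher and 29 lower. Shares of all genes higher and lower were 13.4% and 12.8% in the subset difference, 11.6% and 12.3% in culture, 13.8% and 14.3% in spleen. The 18 mitosis genes and these other genes of the same role thus went the same way on the same arrays. Both lists were chosen with earlier results of these data known, so the second is no independent support for the first.

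Of 43 other replication genes, 33 fell and 6 rose in CD24+ cells, and 33 fell and 5 rose in CD172a+ cells. Prim1, the primase subunit, fell by 2.34 ± 0.13 and 2.81 ± 0.13. Tipin, a fork protection factor, fell by 2.18 ± 0.14 and 2.68 ± 0.14, and Dscc1, which loads the Pcna clamp, by 2.50 ± 0.09 and 2.28 ± 0.09. Gins3, chosen after its values were seen as the partner of Gins1, rose by 1.39 ± 0.26 and 1.33 ± 0.26. The subset difference gave 5 positive and 8 negative calls, with a median of 0.04, led by Pole (2.03 ± 0.39), a replicative polymerase, and Hells (-1.50 ± 0.15), a chromatin remodeller.

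Genes of the Rb, E2F and DREAM network, 23 in all, did not move one way: 7 rose and 14 fell in CD24+ cells, and 9 rose and 12 fell in CD172a+ cells. Rbl1 (p107) rose by 1.60 ± 0.09 and 1.92 ± 0.09, while Rbl2 (p130) fell by 1.46 ± 0.10 and 1.51 ± 0.10. Max and Mxd1, which pair to oppose Myc, rose by 1.84 and 2.60 in CD24+ cells and by 1.99 and 1.88 in CD172a+ cells, and Myc fell by 1.25 ± 0.25 in CD24+ and 3.06 ± 0.25 in CD172a+ cells. Of 27 other regulators of CDKs, 11 rose and 11 fell in CD24+ cells and 8 rose and 15 fell in CD172a+ cells. Cdc25a, the phosphatase that activates Cdk2, fell by 2.33 ± 0.08 and 1.91 ± 0.08, and Ccng2, a cyclin linked to arrest, rose by 2.07 ± 0.11 and 2.57 ± 0.11. The antiproliferative gene Btg2 fell by 1.74 ± 0.10 and 3.18 ± 0.10. Of 18 targets of p53, 6 rose and 9 fell in CD24+ cells and 8 rose and 6 fell in CD172a+ cells. Plk3 fell by 3.63 ± 0.08 and 4.28 ± 0.08, while Mdm4 rose by 1.56 ± 0.09 and 1.43 ± 0.09. Of all genes tested, 47.1% rose and 29.5% fell in CD24+ cells, and 49.4% and 29.5% in CD172a+ cells. Whether these lists differed from those shares was not tested.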

How the data were processed

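Each of the 16 arrays gave 1 table of log2 signals per probe set, the values the authors deposited. The sources used here do not give how scanner intensities became these log2 values, nor whether culture and spleen arrays were normalized together. Of 30177 probe sets, 21789 had 1 gene symbol, 1621 several and 6767 none, by the platform annotation. The probe set with the highest mean stood for each of 19938 genes, and each array was centred on the median of these genes. Groups were compared with limma 3.58.1 in R 4.3.3, in 1 fit with 8 group means (8 residual degrees of freedom, 2-sided, Benjamini-Hochberg over all 19938 genes, adjusted p under 0.05). For KO minus WT over all mice, each mouse's 2 arrays were averaged. Tables and figures were made with Python 3.11.15, pandas 2.3.3, numpy 2.4.6 and matplotlib 3.10.9.

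Values by array were given, per comparison and role group, mainly for up to 3 members past the threshold by size of change (up to 2 where none passed) and always for Mki67, Ccnd1, Ccnd2, Ccnd3, Cdk1 and Pcna. Other members were given by their change, and further lists by counts and up to 4 genes. The cell cycle genes and the lists were chosen with earlier results of these data known. The CD24+ and CD172a+ arrays of a mouse are paired by the animal, and their deviations correlated at -0.096 (spleen WT), 0.202 (spleen KO), 0.205 (culture WT) and 0.393 (culture KO). Tested on simulated data for culture minus spleen in CD24+ cells, the fit over 19938 genes recovered 78%, 92%, 100% and 100% of genes changed by 0.5, 1, 2 and 4 on the log2 scale, and called 12 unchanged genes. The simulation changed few genes and drew arrays independently, while in the data 47.1% of genes were called higher and 29.5% lower. Its shares are therefore not the power of the real comparison. The number of arrays limits the precision. Alternatives were the deposited scale, quantile normalization, averaged probe sets, omission of dim genes, a trended robust fit, each source alone, a replicate block by mouse, single arrays left out and, added after seeing the data, 1 genotype alone.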

Additional observations from a re-analysis of the deposited data

Results flagged for a closer look

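The change between culture and spleen differed between the subsets, by the direct limma test of CD24+ minus CD172a+, for 29 of the 47 cell cycle genes. Each value here is that difference of log2 changes. Among genes of mitosis it was 1.69 for Kif11, 1.63 for Top2a, 1.61 for Birc5 and 1.30 for Nusap1. Smaller positive values were those of Cdk1 (0.90), Ccna2 (0.87), Bub1b (0.83), Ccnb2 (0.73), Cenpe (0.69), Cenpf (0.45) and Kif20a (0.28). Among the G1 genes Ccnd2 was at 2.22, Ccnd1 at 1.83, Ccnd3 at 0.89, Cdk2 at 0.52 and Cdk4 at 0.51, with Cdk6 at -1.13 and the inhibitor Cdkn2c at -0.50.

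Of the transcription factors, E2f2 was at 0.99, Foxm1 at 0.97 and Mybl2 at -0.93. Replication genes lay on both sides of 0. Rrm1 was at 0.75, Rrm2 at 0.73 and Mcm7 at 0.68, while Tyms was at -0.91, Mcm3 at -0.86, Mcm6 at -0.71, Cdt1 at -0.41 and Mcm5 at -0.38. Outlying arrays could not be tested within groups of 2.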

How the results depend on the processing

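In every setting run, 39 of 43 calls between culture and spleen CD172a+ cells, 31 of 40 in CD24+ cells, 16 of 29 of the difference between subsets, 14 of 27 between cultured subsets and 5 of 12 between spleen subsets kept their direction and their side of the threshold. Directions that turned were, as deposited, Cdkn1b (-0.14), Cdt1 (-0.27) and Tyms (-0.05) in CD24+ cells and Cdkn1b (-0.09) and Tpx2 (-0.05) in CD172a+ cells, and, after quantile normalization, Cdkn1b (-0.18 in CD24+ and -0.05 in CD172a+ cells). The cause was not tested. Between spleen subsets 19 genes passed with spleen arrays alone, and 6 in WT groups only, against 12 in all. In KO groups only, 15 passed between cultured subsets and 18 in the difference between subsets, with fewer arrays in each. Leaving out single arrays gave 9 to 12 calls between spleen subsets, 23 to 28 between cultured subsets, 38 to 44 and 41 to 44 between culture and spleen (CD24+ and CD172a+), and 26 to 33 for the difference between subsets. For KO minus WT it gave 0 to 13 in cultured CD24+ cells, 0 to 9 for the difference between sources in CD24+ cells and 0 to 4 over all mice. The highest of each came without KO replicate 1 of culture, where 3.21% and 2.91%, 1.14% and 1.24%, and 0.777% and 1.31% of all genes were called higher and lower. The KO arm of culture then had 1 array, assumed to vary like the other groups. With the mouse as a replicate block, paired within the animal, 16 genes passed between spleen subsets, 31 between cultured subsets and 32 for the difference between subsets. The sides of the other comparisons come from different mice, so there the mouse was a random block. Then 40 and 43 passed between culture and spleen, and 0 in the comparisons of genotype. Except where given, shares of all genes in these settings are not set beside the counts. A count that moved is therefore not read as a result about the members. With 2 arrays a group, small differences between genotypes could not be told from the spread.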
